A study of Homo sapiens with 12 samples.

Results

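The metallothioneins and the zinc-response genes around them were followed in MIAPaCa2 cells, a human pancreatic carcinoma line, with and without oxamate, an inhibitor of lactate dehydrogenase. The members were chosen by symbol: the metallothionein genes MT1E, MT2A, MT1X, MT1F, MT1G, MT1M, MT1A and MT1L, the zinc-sensing factor MTF1 and the zinc exporter SLC30A1. All 10 were among the 26475 gene rows of the count table, and 9 of them were among the 14582 genes expressed highly enough to be tested. A sum over the 8 metallothionein rows was followed beside the single genes. RNA-seq had been run on 4 groups of 3 libraries each: parental cells in vehicle (labelled untreated), parental cells with oxamate, resistant cells in vehicle and resistant cells with oxamate. The resistant cells were polyclonal populations that had grown out of the parental line under continuous oxamate for several weeks, so both arms come from 1 line. Nothing in the labels says that the 3 libraries of a group came from separate cultures, so the p-values measure only the spread between these libraries, which may be technical.

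Metallothioneins are small, cysteine-rich proteins that bind zinc, copper and cadmium and buffer the free metal in the cell. Their genes lie side by side in 1 cluster and are switched on by metals, by glucocorticoids, by oxidants and by low oxygen. MTF1 is the transcription factor that senses free zinc and binds metal response elements in the promoters of metallothionein genes and of SLC30A1. SLC30A1 sits in the plasma membrane and moves zinc out of the cell, and the SLC39A family moves zinc into the cytosol.

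The libraries held between 46698729 and 114222169 expected counts, and every parental library was deeper than every resistant one. Levels below are CPM, counts scaled to the library total by trimmed-mean factors, and a floor of 3 counts stood at 0.0283 to 0.0581 CPM. This floor and the intervals given cover counting error or library spread only. The keratins KRT8, KRT18 and KRT19 and the mesenchymal filament VIM were present in every library, whereas EPCAM, an epithelial surface protein, had at most 3 counts and KRT7 between 10 and 52. CDKN2A, CDKN2B and MTAP were listed at 0 throughout. Of the markers of other cell types, PTPRC, DCN, INS and PRSS1 were at or under 3 counts and PECAM1 at or under 11, CDH5 had 36 to 57 and COL1A1 56 to 137 counts, whereas CD68, a lysosomal protein of macrophages and of many tumour lines, ranged from 56.4 to 220 CPM. CD68 was at 160 and 215 CPM in parental cells without and with oxamate and at 60.8 and 57.7 CPM in resistant cells, a log2 difference of 0.42 with oxamate in parental cells and of -1.40 in vehicle and -1.90 in oxamate between the populations. KRT8, KRT18, KRT19 and VIM were lower in resistant cells in vehicle by 1.11, 0.69, 0.99 and 0.59 in log2. KRT7, with few counts, was higher there, at 0.597 ± 0.240 CPM in resistant against 0.222 ± 0.0610 CPM in parental cells. In these comparisons CD68, KRT8, KRT18, KRT19 and VIM moved in the direction of most members, and KRT7 in vehicle moved against it. The part of these markers in the results was not tested. LDHA, the enzyme subunit that oxamate inhibits, had 1074 ± 13.6 CPM (SD, n = 3) in parental cells without oxamate and 1647 ± 87.6 CPM with it, and 960 ± 13.8 and 1213 ± 13.4 CPM in resistant cells. It rose by 0.62 in log2 (SE 0.03) in parental cells and by 0.34 (SE 0.03) in resistant cells. MALAT1, a nuclear-retained RNA, stood apart in replicate 3 of oxamate-treated parental cells at 596 CPM, against 289 and 281 in the others, and in replicate 3 of vehicle-treated resistant cells at 597 CPM, against 273 and 244. NEAT1, KCNQ1OT1 and MIAT are retained in the nucleus too. All 4 passed edgeR's test upward with oxamate in parental cells, with a median of 1.26 in log2, as did 28.3% of all genes. In resistant cells 1 of 4 passed, against 9.01% of all genes, with a median of 0.77. All 4 were over 1.5-fold higher there at an unadjusted p of 0.05, as were 2.23% of all genes. Between the populations 3 of 4 were higher in resistant cells in vehicle, with a median of 1.16, and in oxamate, with 0.70. Of all genes 38.4% and 40.6% were higher in these. The 3 oxamate-treated resistant libraries had 577, 609 and 742 CPM of MALAT1. With both replicate 3 libraries named above left out, a check added after the values were seen, the counts of members that passed the test did not move in any of the 5 comparisons. The oxamate-treated resistant libraries all stayed in this check, so it does not cover them. The part of nuclear RNA in the results was not tested further. In bulk RNA, fewer cells expressing a gene and less RNA per cell cannot be told apart.

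The family members differ by few bases, which matters for how reads are shared among them. The coding sequences of 4 members are shown because the results turn on them and because they carry the family's near identity. Capitals mark bases that differ from MT1E.
MT1E: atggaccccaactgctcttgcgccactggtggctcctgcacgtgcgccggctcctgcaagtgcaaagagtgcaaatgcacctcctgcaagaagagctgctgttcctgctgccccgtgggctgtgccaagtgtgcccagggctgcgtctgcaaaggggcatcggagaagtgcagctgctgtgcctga
MT1M: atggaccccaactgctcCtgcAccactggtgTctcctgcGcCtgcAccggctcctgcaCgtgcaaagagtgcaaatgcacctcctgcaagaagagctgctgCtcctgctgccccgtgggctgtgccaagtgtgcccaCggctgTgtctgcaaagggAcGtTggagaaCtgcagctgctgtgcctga
MT1X: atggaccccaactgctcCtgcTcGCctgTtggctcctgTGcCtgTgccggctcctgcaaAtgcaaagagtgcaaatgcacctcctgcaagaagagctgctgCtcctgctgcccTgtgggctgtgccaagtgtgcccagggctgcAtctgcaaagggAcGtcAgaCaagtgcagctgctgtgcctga
MT2A: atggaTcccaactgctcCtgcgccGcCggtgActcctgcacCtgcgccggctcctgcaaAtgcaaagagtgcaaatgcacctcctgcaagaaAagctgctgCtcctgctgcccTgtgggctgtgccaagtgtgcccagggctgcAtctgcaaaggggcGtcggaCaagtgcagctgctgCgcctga
Each of these coding sequences, taken from the GENCODE 29 transcripts, had 186 bases. Identity with MT1E was 92.5% for MT1M, 90.9% for MT1X and 92.5% for MT2A. Over whole transcripts, no stretch of 100 bases was shared between a member and any other metallothionein gene. Stretches of 50 bases were shared in 3.59% to 20.2% of positions, the highest in MT1G, and stretches of 25 bases in 11.4% to 36.9%. The expected counts divide reads that match several genes by estimate, so values of the least abundant members, MT1G and MT1F, are the least certain. MT1L is annotated as a transcribed pseudogene.

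The 8 metallothionein members lie within 76.0 kb of chromosome 16 (chr16:56608199-56684196, GRCh38), in the order MT2A, MT1L, MT1E, MT1M, MT1A, MT1F, MT1G and MT1X. MTF1 and SLC30A1 are on chromosome 1. Promoters were read from RefSeq (GRCh38.p14), where 4 of the 10 members had an entry, and searched over 250 bases before the start for the metal response element core, TGCACNC or TGCGCNC, on both strands with overlapping matches merged. MT2A held 7 separate matches and MT1X held 4, and 0.0228% and 0.208% of all 35116 promoters held as many. SLC30A1 held 1 match, where 24.8% of promoters held at least 1, and MTF1 held none of these letters. The SLC30A1 window ends at chr1:211579162, upstream of the GENCODE start at chr1:211578742, and the bases between were not searched. The stretches below are shown because they place these matches, in capitals, beside the genes measured. The MT2A stretch holds 2 of its 7 matches, since the whole window lies inside the longer GENCODE transcript, and the MT1X stretch holds all 4. The MT2A stretch, plus strand, is chr16:56608431-56608451. The MT1X stretch, plus strand, is chr16:56682220-56682423. The SLC30A1 stretch, minus strand, is chr1:211579162-211579411.
MT2A: TGCGCCCggcccagTGCGCGC
MT1X: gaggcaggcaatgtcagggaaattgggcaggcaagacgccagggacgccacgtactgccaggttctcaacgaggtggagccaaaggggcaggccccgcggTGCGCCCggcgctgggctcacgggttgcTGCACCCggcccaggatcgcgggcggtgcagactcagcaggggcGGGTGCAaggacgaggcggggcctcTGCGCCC
SLC30A1: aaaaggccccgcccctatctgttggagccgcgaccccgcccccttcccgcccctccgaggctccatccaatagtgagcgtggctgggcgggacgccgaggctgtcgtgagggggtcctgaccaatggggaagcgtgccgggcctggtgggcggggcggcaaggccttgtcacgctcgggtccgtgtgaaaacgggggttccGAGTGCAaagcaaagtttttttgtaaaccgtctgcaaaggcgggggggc
A match is a description of letters and not evidence that MTF1 was bound.

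Levels between genes were compared per kilobase of transcript. In vehicle-treated parental cells MT2A was highest at 1671 ± 161 CPM per kilobase (SD, n = 3), followed by MT1E at 618 ± 50.05, MT1X at 320 ± 33.4, MT1L at 153 ± 12.5 and MT1A at 65.6 ± 4.52. The GENCODE model of MT2A starts 385 bases before the RefSeq start, and a shorter model would place MT2A higher still. SLC30A1 was at 4.58 ± 0.227 and MTF1 at 3.02 ± 0.113 CPM per kilobase. MT1M stood below both at 2.37 ± 0.298, and MT1G was lowest of the tested members at 0.889 ± 0.0632. With oxamate, MT1M in parental cells reached 6.02 ± 0.338 CPM per kilobase and lay above SLC30A1 at 5.59 ± 0.0499. MT1F had between 0 and 1.17 counts in all libraries and was not tested. The other metallothionein rows in the table, which included MT1B, MT1H, MT3 and MT4, held at most 2 counts in any library and were not tested either.

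The first comparison asked what oxamate did in parental cells. Metallothionein RNA rose, most in MT1M, MT1G and MT1E, while MT1A and MTF1 fell. All 9 tested members passed an adjusted p of 0.05 in edgeR's quasi-likelihood test, 7 higher and 2 lower. Over all genes tested 58.7% passed, 28.3% higher and 30.4% lower, so passing the test is common in this comparison. By size of change, MT1E, MT1X, MT1G and MT1M exceeded a fold of 1.5 upward at an unadjusted p of 0.05, as did 5.69% of all genes. The median log2 fold change was 0.49 over the 9 members and 0.00296 over all genes. The 2 groups did not overlap for any of the 9 members, and 61.5% of all genes did not overlap.

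MT1E had 467, 440 and 397 CPM in the vehicle-treated parental libraries and 993, 966 and 1009 CPM with oxamate. Every treated library was above every control, and the log2 fold change was 1.18 (SE 0.04, adjusted p = 1.73e-11). MT1M, which encodes a further isoform of the protein, had 2.20, 1.99 and 1.70 CPM in vehicle and 5.29, 4.93 and 4.74 CPM with oxamate, a rise of 1.33 in log2 (SE 0.09, adjusted p = 6.40e-09). MT1X went from 157, 148 and 127 CPM to 273, 265 and 281 CPM and rose by 0.92 (SE 0.05). All 3 genes separated the groups, and in each the lowest value was that of replicate 3 in vehicle.

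MT2A, the most abundant member, had 1421, 1345 and 1174 CPM in vehicle and 1819, 1770 and 1859 CPM with oxamate. It rose by 0.47 in log2 (SE 0.05, adjusted p = 9.23e-07), less than MT1E or MT1X. The pseudogene transcript MT1L moved by a like amount, from 67.3, 63.9 and 57.2 CPM to 87.9, 86.1 and 91.1 CPM (log2 0.49, SE 0.05). MT1G was sparse, with 38.15, 33.12 and 24.08 expected counts in vehicle and 50.19, 40.16 and 59.18 with oxamate in shallower libraries. Scaled, this was 0.361 ± 0.0256 against 0.840 ± 0.0682 CPM (SD, n = 3) and a log2 fold change of 1.23 (SE 0.20, adjusted p = 6.02e-05). The summed MT1 and MT2 level was 2143, 2026 and 1782 CPM in vehicle and 3203, 3116 and 3268 CPM with oxamate, 0.69 higher in log2 (SE 0.05).

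MT1A went the other way. It had 27.6, 26.2 and 24.1 CPM in vehicle and 22.8, 23.0 and 23.6 CPM with oxamate, and the nearest values of the 2 groups lay close together. The fall of 0.17 in log2 (SE 0.05, adjusted p = 0.00489) was the smallest change among the members. MTF1, the zinc sensor, had 24.5, 23.1 and 24.8 CPM in vehicle and 18.7, 18.9 and 20.1 CPM with oxamate, and fell by 0.32 (SE 0.04, adjusted p = 2.94e-06). SLC30A1, the exporter, had 23.9, 25.03 and 26.3 CPM in vehicle and 30.7, 30.8 and 30.3 CPM with oxamate, and rose by 0.29 (SE 0.04, adjusted p = 9.73e-06). In parental cells the RNA of the exporter and of 6 metallothionein genes went up while that of their known activator went down.

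**Figure D1:**
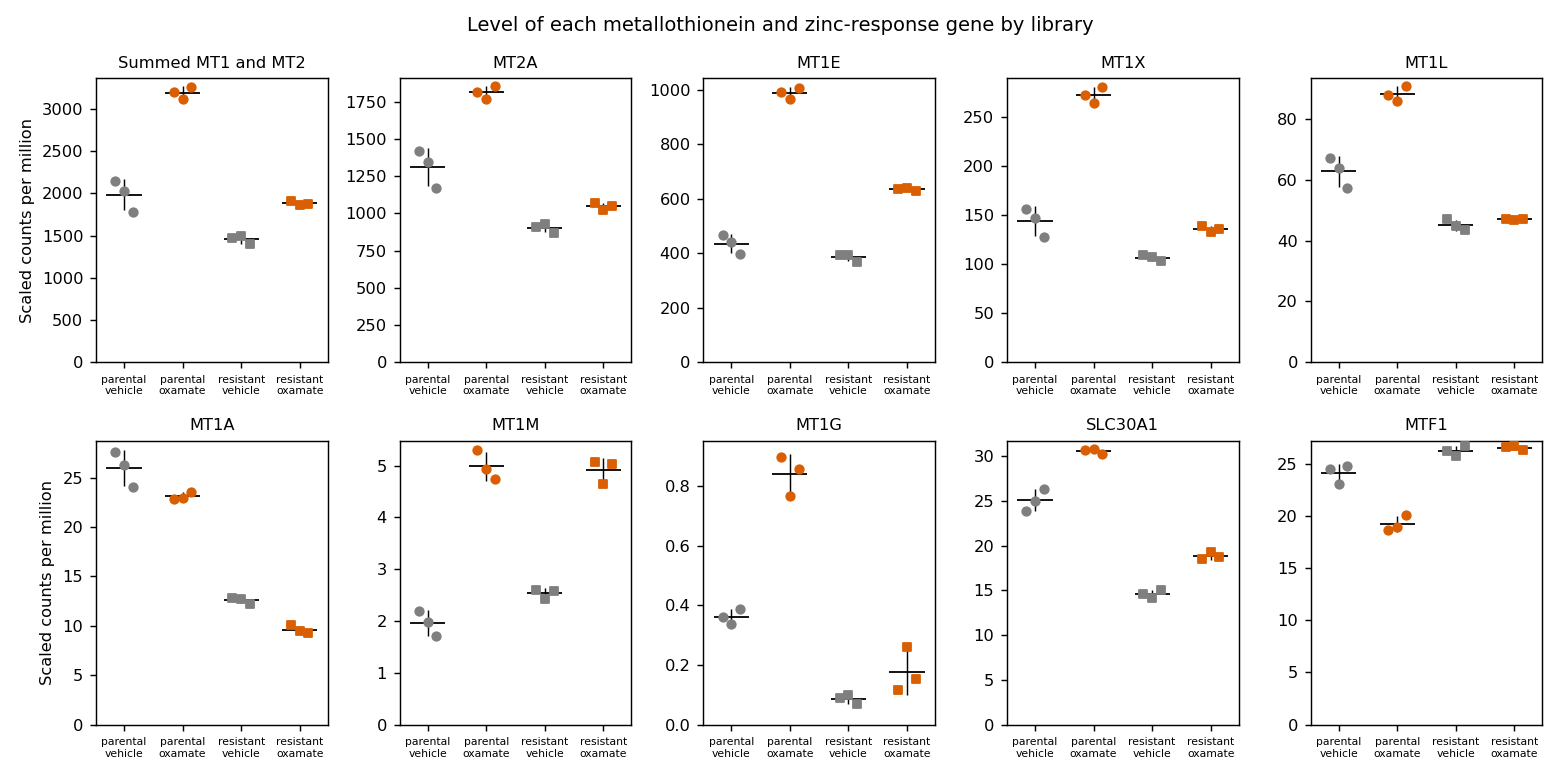
Scaled CPM (vertical axes from 0) of the summed MT1 and MT2 counts and of the 9 tested members in the 4 groups. Points are libraries, horizontal bars are group means and vertical bars are ± SD (n = 3). MT1E in oxamate-treated parental cells sits between 966 and 1009 CPM, above all other libraries, whereas MTF1 is lowest in that group.

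The same treatment was compared in resistant cells. MT1E, MT1M, MT1X, MT2A and SLC30A1 rose and MT1A fell, whereas MT1L, MTF1 and MT1G did not pass the test. This made 6 of 9 members, against 21.5% of all genes tested, of which 9.01% were higher and 12.5% lower. MT1E, MT1G and MT1M exceeded a fold of 1.5 upward at an unadjusted p of 0.05, as did 2.23% of all genes. MT1G passed the filter on low counts in 7 libraries, mainly parental ones, and without it 2 of 8 members exceeded that fold. The groups did not overlap for 7 of 9 members, MT1G among the 7, and for 41% of all genes. This comparison shares no library with the one in parental cells. The medians were 0.35 over the members, 0.29 without MT1G, and -2.06e-05 over all genes.

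MT1E had 393, 394 and 368 CPM in vehicle-treated resistant cells and 638, 639 and 629 CPM with oxamate, a rise of 0.72 in log2 (SE 0.04, adjusted p = 3.24e-08). MT1M had 2.6, 2.42 and 2.59 CPM in vehicle and 5.07, 4.65 and 5.03 CPM with oxamate, a rise of 0.96 (SE 0.09). MT1X went from 110, 107 and 103 CPM to 139, 133 and 136 CPM, a rise of 0.35 (SE 0.05). Treated and control libraries were apart in all 3 genes. MT2A had 909, 929 and 870 CPM in vehicle and 1073, 1026 and 1048 CPM with oxamate, a rise of 0.22 (SE 0.05, adjusted p = 0.00687). The summed level went from 1474, 1490 and 1399 CPM to 1912, 1859 and 1876 CPM, 0.37 higher in log2 (SE 0.05).

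MT1A had 12.8, 12.7 and 12.2 CPM in vehicle and 10.1, 9.49 and 9.24 CPM with oxamate, and fell by 0.39 (SE 0.06, adjusted p = 2.47e-04). It was the metallothionein gene that fell in both cell populations. SLC30A1 rose from 14.6, 14.1 and 15.1 CPM to 18.5, 19.3 and 18.7 CPM, by 0.36 in log2 (SE 0.04). MT1L was at 47.1, 44.7 and 43.5 CPM in vehicle and 47.2, 46.8 and 47.2 CPM with oxamate, and these ranges overlapped. Its difference was 0.06 in log2, with a 95% interval from -0.04 to 0.17 (adjusted p = 0.386). MTF1 was at 26.2, 25.7 and 26.7 CPM in vehicle and 26.6, 26.7 and 26.3 CPM with oxamate, a difference of 0.02 with an interval from -0.06 to 0.10 (adjusted p = 0.786). MT1G had only 5.02, 5.87 and 4.03 counts in vehicle and 6.02, 13.37 and 9.04 with oxamate. Its log2 difference of 0.99 (SE 0.37, adjusted p = 0.0909) rested on few reads.

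The difference between both responses was then tested as an interaction, resistant minus parental. Of the 9 members, 7 passed: MT1E, MT1X, MT1L, MT2A, MT1M and MT1A were lower in the resistant response and MTF1 was higher, but under scaling by library size alone 3 were lower and 2 higher. Over all genes 44.2% passed, 21.4% lower and 22.7% higher. No member exceeded a fold of 1.5 in this edgeR contrast, whereas 7 had an unadjusted p under 0.05, and 8.48% of all genes exceeded that fold at that p. The median was -0.25 over the members and -0.00719 over all genes.

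MT1X differed most, by -0.57 in log2 (SE 0.08, adjusted p = 2.09e-05), since its rise was 0.92 in parental and 0.35 in resistant cells. MT1E differed by -0.46 (SE 0.06, adjusted p = 2.26e-05) and MT1L by -0.43 (SE 0.07, adjusted p = 9.99e-05). The MTF1 response differed by 0.34 in the other direction (SE 0.05, adjusted p = 1.11e-04). MT2A differed by -0.25 (adjusted p = 0.00905), MT1A by -0.22 (adjusted p = 0.0226) and MT1M by -0.37 (adjusted p = 0.0294). MT1M lost the call with any 1 of 6 libraries left out and MT1A with any 1 of 2, namely replicate 1 of vehicle-treated and replicate 3 of oxamate-treated resistant cells. For MT1M these were replicates 2 and 3 of vehicle-treated and replicate 1 of oxamate-treated parental cells, replicates 1 and 3 of vehicle-treated and replicate 2 of oxamate-treated resistant cells, with edgeR's adjusted p between 0.054 and 0.0691. SLC30A1 responded by 0.29 and 0.36, a difference of 0.08 with an interval from -0.05 to 0.20 (adjusted p = 0.319), so an unequal response of the exporter was not detected. MT1G gave no usable estimate, with an interval from -1.22 to 0.74. The summed level differed by -0.32 (SE 0.07). Scaling by library size alone moved the median of all genes by 0.10 in this contrast in log2 and left MT2A at -0.14 (adjusted p = 0.111), MT1A at -0.12 (0.216) and MT1M at -0.26 (0.103), and brought SLC30A1 to 0.18 (adjusted p = 0.0250).

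**Figure D2:**
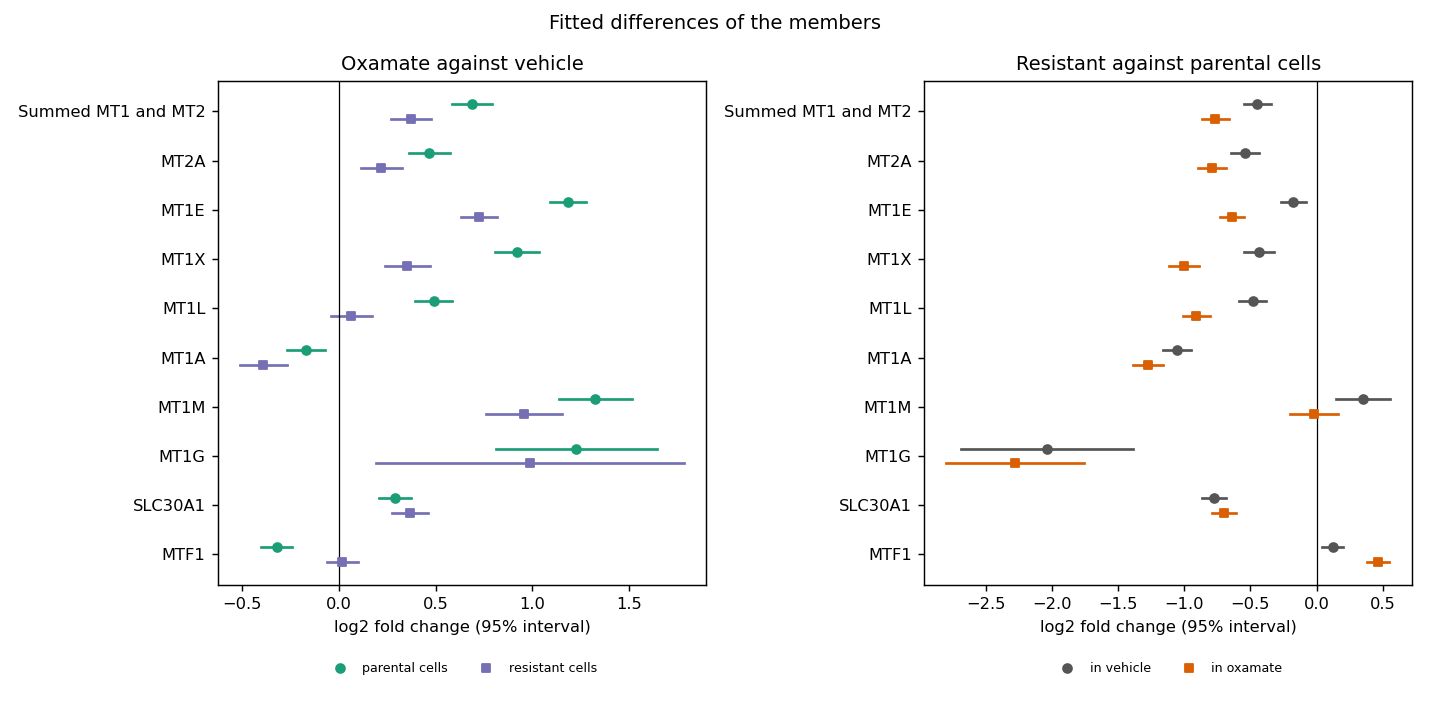
Fitted log2 fold changes (horizontal axes) of the summed counts and the 9 tested members, with 95% intervals as bars. The left panel shows oxamate against vehicle in parental cells (circles) and resistant cells (squares), where MT1E stands at 1.18 and 0.72. The right panel shows resistant against parental cells in vehicle (circles) and in oxamate (squares), where MT1A stands at -1.05 and -1.27, and where MT1E in vehicle, at -0.18, would be 0.04 under scaling by library size alone.

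Resistant cells were next compared with parental cells in vehicle. Members were lower in resistant cells except MT1M and MTF1, and MT1A and SLC30A1 showed the clearest drop among those with enough reads. MT1G passed the filter on low counts in only 7 libraries, 6 of them parental, so its difference between the populations is bound up with that filter, and it is left out of the counts that follow. All of the other 8 passed, 2 higher and 6 lower, where 75.7% of all genes passed, 38.4% higher and 37.3% lower. Of the 8, MT1A and SLC30A1 were lower by more than 1.5-fold at an unadjusted p of 0.05, as were 6.14% of all genes. None of the 8 overlapped between the groups, and 77.6% of all genes did not. Scaling by library size alone moved the median of all genes by 0.22 and left 2 of the 8 higher and 5 lower, with MT1A lower by more than 1.5-fold, and differences of that size between the populations depend on the scaling.

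MT1A, at 27.6, 26.2 and 24.1 CPM in parental and 12.8, 12.7 and 12.2 CPM in resistant libraries, was lower by 1.05 in log2 (SE 0.05, adjusted p = 2.14e-11). SLC30A1, at 23.9, 25.03 and 26.3 against 14.6, 14.1 and 15.1 CPM, was lower by 0.77 (SE 0.04, adjusted p = 9.90e-11). Both genes left a wide gap between the populations. MT2A was lower by 0.54 (SE 0.05), MT1L by 0.48 (SE 0.05) and MT1X by 0.44 (SE 0.05). MT1E differed by -0.18 (SE 0.04, adjusted p = 0.00186) and by 0.04 (adjusted p = 0.385) under scaling by library size alone, so its direction was not settled. MT1M was higher by 0.35 (SE 0.10, adjusted p = 0.00389), with 2.6, 2.42 and 2.59 CPM in resistant against 2.20, 1.99 and 1.70 CPM in parental libraries. MTF1 was higher by 0.12 (SE 0.04, adjusted p = 0.00718). The summed level was 0.45 lower in log2 (SE 0.05), and 0.23 lower under scaling by library size alone.

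With oxamate in both arms, 7 of the same 8 members passed, 6 lower and 1 higher, where 80.3% of all genes passed, 39.7% lower and 40.6% higher. The 6 lower members were lower by more than 1.5-fold at an unadjusted p of 0.05, as were 11.4% of all genes, but under scaling by library size alone only MT1A and MT1X were. MT1X had 273, 265 and 281 CPM in parental and 139, 133 and 136 CPM in resistant cells, lower by 1.00 in log2 (SE 0.05, adjusted p = 4.82e-11). MT1A was lower by 1.27 (SE 0.05), MT1L by 0.91 (SE 0.05), MT2A by 0.79 (SE 0.05), SLC30A1 by 0.70 (SE 0.04) and MT1E by 0.64 (SE 0.04). Under scaling by library size alone these differences were -0.68 for MT1X, -0.95 for MT1A, -0.58 for MT1L, -0.47 for MT2A, -0.37 for SLC30A1 and -0.31 for MT1E, each still past the test. MTF1 was higher by 0.46 (SE 0.04, adjusted p = 1.56e-08). MT1M had 5.29, 4.93 and 4.74 CPM in parental and 5.07, 4.65 and 5.03 CPM in resistant cells, and these ranges overlapped. The other 7 of the 8 did not overlap between the groups, where 81.2% of all genes did not. The MT1M difference was -0.02, with an interval from -0.20 to 0.16 (adjusted p = 0.864), but 0.31 (adjusted p = 0.00360) under scaling by library size alone, which moved the median of all genes by 0.32. The summed level was 0.76 lower (SE 0.05), and 0.44 lower under scaling by library size alone. Comparisons between the populations and those of oxamate share libraries, so their values are not independent of each other.

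The metallothionein genes did not change in proportion, and this left the make-up of the summed counts altered. Shares within a library do not depend on how libraries are scaled. MT1E supplied 21.95% ± 0.306 (SD, n = 3) of the summed MT1 and MT2 counts in vehicle-treated parental cells and 31.0% ± 0.0864 with oxamate. In resistant cells its share was 26.5% ± 0.174 in vehicle and 33.7% ± 0.530 with oxamate. The share of MT2A moved oppositely, from 66.2% ± 0.290 to 56.8% ± 0.0356 in parental cells and from 62.0% ± 0.341 to 55.7% ± 0.479 in resistant cells. MT1A supplied 1.31% ± 0.0340 and 0.724% ± 0.0130 in parental cells and 0.864% ± 0.0119 and 0.509% ± 0.0167 in resistant cells. MT1M stayed a minor part throughout, at 0.0988% ± 0.00348 and 0.156% ± 0.0103 in parental and 0.175% ± 0.0114 and 0.261% ± 0.00990 in resistant cells. These shares are counts per gene and not per length.

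The ratio of MT1E to MT2A counts showed the shift library by library. It was 0.329, 0.327 and 0.339 in vehicle-treated parental cells and 0.546, 0.546 and 0.543 with oxamate. In resistant cells it was 0.432, 0.425 and 0.423 in vehicle and 0.594, 0.622 and 0.600 with oxamate. No library of a group reached the range of another, and the order ran from vehicle-treated parental cells through vehicle-treated resistant and oxamate-treated parental cells to oxamate-treated resistant cells. The ratio of MT1L to MT2A moved little, with group means between 0.0449 and 0.04997. The ratio of MT1X to MT2A was 0.110 ± 0.000893 and 0.150 ± 0.000775 in parental cells and 0.118 ± 0.00265 and 0.130 ± 0.000263 in resistant cells.

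**Figure D3:**
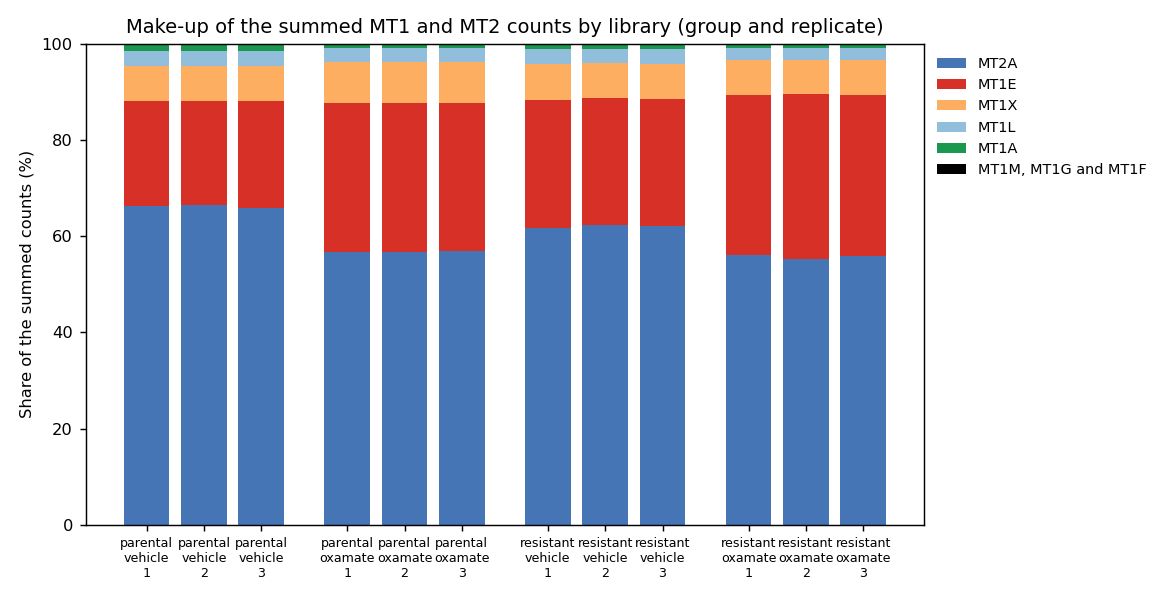
Share of the summed MT1 and MT2 counts (vertical axis, percent) supplied by each gene in each of the 12 libraries, stacked to 100%. The MT1E part widens with oxamate, from a mean of 21.95% to 31.0% in parental and from 26.5% to 33.7% in resistant cells, and the MT2A part narrows.

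The responses did not follow the order of the genes in the cluster. Counted from the MT2A start to the lower coordinate of each gene, MT1L lies 9.28 kb, MT1E 17.28 kb, MT1M 24.03 kb, MT1A 30.47 kb, MT1G 58.53 kb and MT1X 74.22 kb along the chromosome. For MT1G, on the minus strand, this coordinate is the end of the gene. MT1M and MT1A are neighbours in this order, yet MT1M rose by 1.33 and MT1A fell by 0.17 in oxamate-treated parental cells. In vehicle, MT1M was 0.35 higher and MT1A 1.05 lower in resistant than in parental cells. MT1E and MT1M, which are neighbours too, both rose in both populations. MT2A and MT1L, at the other end, had near-equal changes of 0.47 and 0.49 in parental cells. Transcripts of up to 800 bases, as most metallothionein transcripts are, had a median log2 fold change of 0.11 in oxamate-treated parental cells and -0.04 in resistant cells over 535 genes. Between the populations that median was -0.18 in vehicle and -0.36 in oxamate, in the direction of most members. The part of transcript length in these comparisons was not tested.

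**Figure D4:**
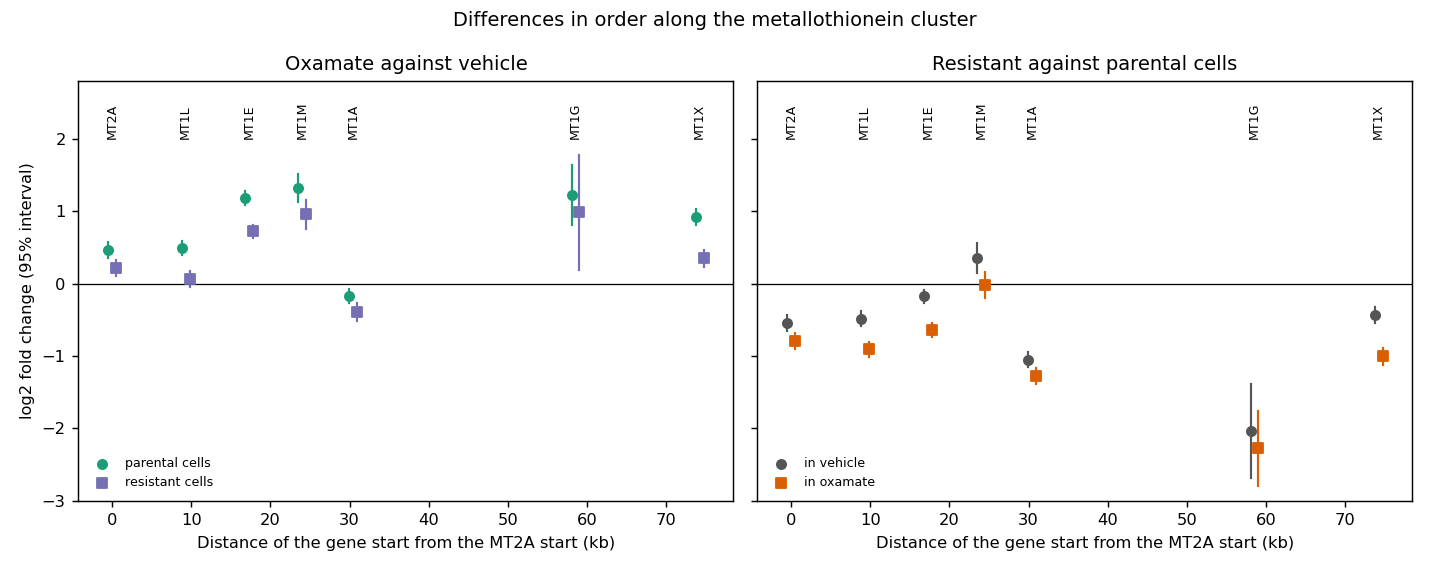
Log2 fold changes with 95% intervals (vertical axes) against the distance in kb of each gene's lower coordinate from the MT2A start, for oxamate against vehicle (left) and resistant against parental cells (right). That coordinate is the gene start except for MT1G, on the minus strand, where it is the gene end. MT1M at 24.03 kb and MT1A at 30.47 kb lie side by side and differ in direction in oxamate-treated parental cells, at 1.33 and -0.17. MT1F was not tested and is left out.

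The other zinc transporters gave no common direction. Of 6 further tested SLC30A exporters, 2 rose and 3 fell in oxamate-treated parental cells, with a list median of -0.06, and 1 fell in resistant cells, with a list median of 0.03. The share of all genes that passed was 58.7% in parental and 21.5% in resistant cells. SLC30A7 and SLC30A6, which load zinc into the secretory pathway, fell in parental cells by 0.39 (SE 0.05, adjusted p = 6.83e-06) and by 0.33 (SE 0.04, adjusted p = 8.85e-06). SLC30A7 was at 14.7 ± 0.915 and 11.2 ± 0.377 CPM (SD, n = 3) in parental cells and at 17.7 ± 0.693 and 18.3 ± 0.153 CPM in resistant cells. In resistant cells the oxamate differences were 0.05 and 0.06, and the interaction passed for both SLC30A7 (0.44, adjusted p = 1.11e-04) and SLC30A6 (0.38, adjusted p = 8.86e-05). Both were higher in resistant than in parental cells, SLC30A6 by 0.55 (SE 0.04) in vehicle and by 0.94 (SE 0.04) in oxamate. SLC30A5, which pairs with SLC30A6, fell by 0.14 in parental and by 0.19 in resistant cells.

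Of 11 tested SLC39A importers, 4 rose and 3 fell with oxamate in parental cells (2 and 5 under scaling by library size alone) and 3 fell in resistant cells. Of all genes, 58.7% passed in parental and 21.5% in resistant cells. The list medians were 0.04 and -0.07. SLC39A14, which takes up zinc and iron, fell by 0.23 in log2 (SE 0.03, adjusted p = 3.91e-06) in parental cells, from 220 ± 3.08 to 188 ± 7.17 CPM (SD, n = 3). It fell by 0.26 (SE 0.03, adjusted p = 2.59e-05) in resistant cells, from 184 ± 3.32 to 154 ± 2.39 CPM. SLC39A1, a broadly expressed plasma membrane importer, rose by 0.26 in parental cells, and its difference in resistant cells was -0.09 (adjusted p = 0.0584), which passed in DESeq2 (adjusted p = 0.0415) and in edgeR with no filter on low counts (0.0428), with only the samples compared (0.0386) or without replicate 3 of vehicle-treated resistant cells (0.0133). Between the populations in vehicle, 7 importers were lower in resistant cells and none of the 11 was higher by edgeR's test, but under scaling by library size alone 5 were lower and 5 higher. Of all genes 37.3% were lower and 38.4% higher by edgeR's test in vehicle. SLC39A7, which releases zinc from the endoplasmic reticulum, was lower by 0.73 (SE 0.03) and SLC39A3 by 0.61 (SE 0.04). In oxamate 9 were lower, SLC39A7 by 0.94 (SE 0.03), and 1 was higher, against 3 lower and 4 higher under scaling by library size alone. Of all genes 39.7% were lower and 40.6% higher by edgeR's test in oxamate.

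**Figure D5:**
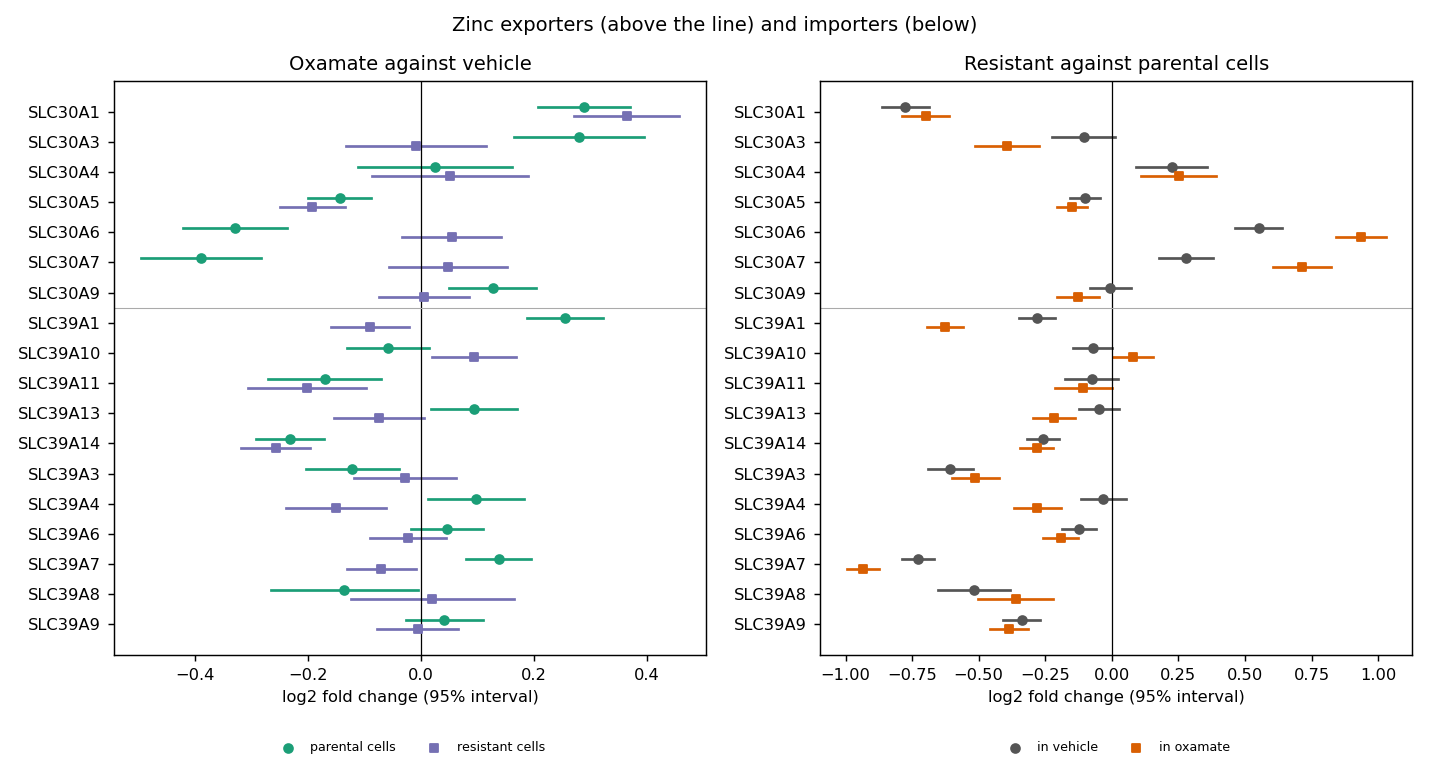
Log2 fold changes with 95% intervals (horizontal axes) of SLC30A1 and the 6 other tested exporters (above the line) and the 11 tested importers (below). SLC30A7 and SLC30A6 lie at -0.39 and -0.33 with oxamate in parental cells and near 0 in resistant cells, and SLC39A7 lies at -0.73 and -0.94 in resistant against parental cells.

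Genes of copper handling and of other routes that are known to act on metallothioneins were counted beside the members. The counts stand beside 58.7% of all genes in parental and 21.5% in resistant cells. Of 11 copper genes, 2 rose and 6 fell with oxamate in parental cells, and 1 rose and 2 fell in resistant cells, but under scaling by library size alone 2 rose and 8 fell in parental cells and 1 passed in resistant cells, upward. The copper pump ATP7A rose by 0.51 (SE 0.05) in parental cells, whereas its relative ATP7B fell by 0.46 (SE 0.06). In resistant cells ATP7A rose by 0.19 (adjusted p = 0.0194), a call lost in edgeR with replicate 2 or 3 of vehicle-treated or replicate 1 or 3 of oxamate-treated resistant cells left out (adjusted p from 0.0568 to 0.0630). Of 14 genes of the heavy metal and oxidant response, 7 rose and 5 fell in parental cells (6 and 6 under that scaling), with a list median of 0.08. In resistant cells 7 fell and none rose by edgeR's test, with a list median of -0.15. Among genes lower with oxamate in parental cells, TXNRD1 went from 608 to 474 CPM and GCLC from 22.6 to 17.1 CPM. SRXN1 went from 93.0 to 79.1 CPM and SLC7A11 from 2.03 to 1.18 CPM. SLC7A11 was at 13.9 CPM in vehicle-treated and 12.2 CPM in oxamate-treated resistant cells. The heat-shock chaperone genes HSPA1B and HSPA1A rose by 0.76 (SE 0.03) and 0.74 (SE 0.03) in parental cells and fell by 0.35 and 0.36 in resistant cells. They are near-identical copies, and the division of reads between them is uncertain. Their co-chaperone DNAJB1 rose by 0.55 (SE 0.02) in parental cells and fell by 0.19 in resistant cells. The haem-degrading enzyme HMOX1 rose by 0.38 (SE 0.03) and fell by 0.36 (SE 0.03). The interaction passed for each of these 4 genes, at -1.11 for HSPA1B and -0.74 for HMOX1. In resistant cells, where these 4 fell, MT1E, MT1X, MT1M and MT2A rose, MT1A fell, and MT1L and MT1G did not pass. A link between the 2 sets of genes was not tested.

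Of 9 tested glucocorticoid-response genes, 4 rose and 4 fell with oxamate in parental cells, with a list median of 0.08, and 6 fell in resistant cells, with a list median of -0.11, where 58.7% and 21.5% of all genes passed. With upper-quartile factors or library size alone, 4 fell in resistant cells. TSC22D3, a direct target of the glucocorticoid receptor, rose from 21.5 ± 0.472 to 44.8 ± 1.03 CPM (SD, n = 3) in parental cells, by 1.06 in log2 (SE 0.04). In resistant cells it was at 13.9 ± 0.792 and 14.5 ± 0.539 CPM, a difference of 0.06 (adjusted p = 0.350). The clock gene PER1 rose by 0.70 (SE 0.05) in parental and fell by 0.34 (SE 0.05) in resistant cells. Other genes of this list were lower with oxamate in parental cells. FKBP5 went from 49.5 ± 0.268 to 41.4 ± 0.999 CPM, KLF9 from 65.7 ± 1.45 to 54.1 ± 0.385 and ERRFI1 from 1786 ± 27.4 to 1621 ± 14.3.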

How the data were processed

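RNA of 12 samples was extracted, enriched for polyadenylated transcripts on oligo(dT) beads and sequenced, and the authors deposited a table of expected counts per gene. Per the labels' processing notes, Bowtie2 2.1.0, RSEM 1.2.15 and the build hg38 were used. Per the study's methods, reads were mapped to a UCSC transcript set. Its version and the strand setting are not given in the sources used here. Expected counts divide reads shared by several genes by estimate, and 11.6% of the 317700 deposited values were not whole. The methods also describe a STAR and featureCounts route that counts uniquely placed exonic reads, which gives whole numbers only.

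The expected counts were rounded and fitted in edgeR 4.0.16 (R 4.3.3) with its default expression filter, trimmed-mean scaling, 1 mean per group over all 12 libraries and the quasi-likelihood test. P-values were adjusted by Benjamini-Hochberg over all 14582 tested genes, at a threshold of 0.05, which is the adjusted p quoted throughout. The study's own rule, an unadjusted p under 0.05 with a fold over 1.5, was counted beside it. Summed MT1 and MT2 counts replaced the single rows in a second fit, with no test. Intervals are 95%. On simulated counts for the comparison of oxamate in parental cells, drawn over 14382 genes, 180 of 196 changed genes were recovered with 10 false calls. These changes were of 1.5- to 4-fold in few genes, with all other means equal between groups. Smaller changes, and changes in most genes, were not simulated, so the recovery says nothing of them. Alternatives used limma 3.58.1 and DESeq2 1.42.0. Annotation came from GENCODE 29, and figures were drawn with matplotlib 3.10.9. Groups were taken from the labels.

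The members and gene lists were chosen with earlier results of these data known. The text names all members, LDHA, up to 3 genes of each list per comparison by smallest p with their values in other comparisons, and the 5 genes most and least like the summed level by Pearson correlation where the mean level reached 8 CPM. Further genes of the oxidant and glucocorticoid lists that were lower with oxamate in parental cells were added after the values were seen. Lists of cell markers and nuclear RNA were read as levels, with fitted log2 differences for some markers and counts of calls for nuclear RNA.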

Additional observations from a re-analysis of the deposited data

Results flagged for a closer look

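Groups of 3 libraries are too small for a test of single outlying libraries. The results listed here are those where the oxamate response of a member differed between resistant and parental cells by edgeR's interaction test, in log2 units, resistant minus parental. The metallothionein members MT1X (-0.57), MT1E (-0.46), the pseudogene MT1L (-0.43), MT1M (-0.37), MT2A (-0.25) and MT1A (-0.22) had a lower response in resistant cells. For MT1A this was a deeper fall, from -0.17 in parental to -0.39 in resistant cells, and for MT1X, MT1E, MT1M and MT2A a smaller rise. MT1L rose by 0.49 in parental cells, and its difference of 0.06 in resistant cells did not pass the test. MTF1 differed by 0.34, with a fall of 0.32 in parental cells and a difference of 0.02 in resistant cells.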

How the results depend on the processing

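The alternatives run were other scalings and filters, unrounded counts, a replicate block, limma-voom, DESeq2 and only the samples compared. Each library was also left out, as were, together, replicate 3 of oxamate-treated parental and replicate 3 of vehicle-treated resistant cells. Over these, 789 of the member values kept their side of the threshold, 12 lost the call, 1 gained it and 2 turned. A turn was counted only where either fit passed the test, so the 789 may include changes of direction in values that passed in neither. Under the fold rule of 1.5 the members called were 4 for oxamate in parental cells, 3 in resistant cells and 3 between the populations in vehicle. Without MT1G, a count chosen after the values were seen, 2 were left in resistant cells and 2 between the populations in vehicle. For the interaction 0 were called, where 7 members had an unadjusted p under 0.05. With single libraries left out, the members called for the interaction ranged from 5 to 7. The summed log2 difference between the populations in vehicle was -0.23 under library size alone. In oxamate it was -0.68 with upper-quartile factors, -0.44 with library size alone and -0.73 with only the samples compared, and for the interaction -0.21 with library size alone. Library size alone turned MT1E in vehicle to 0.042, MT1M in oxamate to 0.31, SLC30A5 to 0.12 in vehicle and 0.18 in oxamate, LDHA in vehicle to 0.058 and SLC39A14 in oxamate to 0.043, each by about the shift of all genes. Without MT1L in the sum, the share of MT1E was 22.7% and 31.8% in vehicle- and oxamate-treated parental cells and 27.3% and 34.6% in resistant cells, since the sum was smaller. The interaction of MT1M was -0.37 in DESeq2 (adjusted p = 0.0795).

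Same-numbered libraries deviated together with correlations from -0.0998 to 0.371, over 0.1 in 6 of 18 pairs, and 9 of 18 correlated best with their own number, so the numbers were not taken as pairs. With the replicate block the members called stayed at 9, 6, 9 and 8 in the pairwise comparisons and 7 for the interaction, and SLC39A1 in resistant cells, at -0.09, passed (adjusted p = 0.0175). Low counts limited MT1G and MT1F.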

Other observations

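Outside the metallothionein family, the genes whose log2 CPM ran most like the summed MT1 and MT2 level over the 12 libraries were DDX41 (Pearson r 0.991), an RNA helicase, MYH16 (0.988), the actin-binding DBNL (0.986), and the glycolytic enzymes GPI (0.986) and PGK1 (0.985), among 9618 genes compared. PGK1 stood at 1063 CPM in vehicle-treated and 1967 CPM in oxamate-treated parental cells, and at 743 and 999 CPM in resistant cells. GPI stood at 1380, 2505, 1018 and 1255 CPM in the same order. The genes running most against the summed level were EIF4G2 (-0.993), a translation factor, ZNF354A (-0.990), the sphingomyelin synthase SGMS1 (-0.989), RABEP1 (-0.988) and MINA (-0.987). The 12 libraries share 4 group means and their depth, so these correlations describe the order of the groups, and genes are not independent replicates.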
